A study of Drosophila melanogaster with 12 samples.

Results

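Cells of the Drosophila melanogaster line S2 that had received double-stranded RNA (dsRNA) of any kind were compared with S2 cells that had received none. All 12 libraries of the series entered: 9 from dsRNA-treated cells and 3 from untreated control cells. The comparison set the equally weighted mean of the 3 dsRNA groups against control, to look for changes common to dsRNA-treated cells whichever gene was targeted. Such an average can be carried by some of the groups, so the groups are also given apart. Gene expression was measured by 3' RNA-seq, which counts transcripts from their polyadenylated ends. The dsRNA groups were BEAF-32 RNAi (dsRNA against BEAF-32, which encodes a DNA-binding insulator protein), row RNAi (dsRNA against row, which encodes a zinc finger chromatin protein) and double RNAi (dsRNA against both), with 3 libraries each. Per the labels' protocols, cells were given dsRNA at 4 µg per ml, then diluted and given 8 µg per ml after 2 days, and were collected 2 days later; control cells are labelled as not treated. The labels do not say how the dose was divided between the dsRNAs in double RNAi. No group received dsRNA of unrelated sequence, so a response to dsRNA as such, the loss of either protein and the handling of treated cells cannot be told apart. S2 is a cell line from late embryos with macrophage-like properties.

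In flies, long dsRNA taken up by a cell is cut by Dicer-2 into short interfering RNAs, which Dicer-2 and its partner R2D2 load into Argonaute-2. Argonaute-2 then cuts transcripts of matching sequence. S2 cells take dsRNA from the medium by endocytosis, which is why adding it to the culture is enough for RNA interference (RNAi). The same pathway defends flies against RNA viruses, and Dicer-2 is also linked to the induction of some antiviral genes.

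Total counts ran from 2276507 to 3963412 per library, with counts for 8574 to 9107 of 16718 listed genes. A filter on low counts left 7377 genes to test. Total count, genes detected, the share of counts in ribosomal protein genes, the share in the 50 most abundant genes and the scaling factor did not separate the 9 dsRNA libraries from the 3 controls (exact two-sided permutation tests, p = 0.5 to 0.968, adjusted p = 0.968 for each of the 5 values, smallest p possible 0.00455). Ribosomal protein genes took 38.9% to 42.0% of counts in dsRNA libraries and 40.3% to 42.6% in controls. Of the markers of macrophage-like cells, Hml stood at 63.1 CPM in control (CPM, the count rescaled to equal library totals), Pxn at 585 CPM and Cg25C at 866 CPM. The phagocytosis receptor gene NimC1 was near 0 (0.811 CPM in control), and NimC2 and gcm2 had no counts. Lists of markers of other cell types were detected in part. No counts were found for lz and PPO1 (crystal cells), wupA and Mlc1 (muscle) or VGlut and Gad1 (neurons). Other members of these lists were present in control, with Men at 192 CPM, Msp300 at 165 CPM, Mef2 at 10.9 CPM, Syt1 at 21.7 CPM, fne at 11.9 CPM and elav at 10.4 CPM.

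Few transcripts differed between dsRNA-treated and untreated cells. DnaJ-1, which encodes an Hsp40 co-chaperone, and CG43293 rose on average over the dsRNA groups. CG14523 and CG14527, neighbouring genes of neprilysin-like metallopeptidases, fell, as did Nplp2 (a neuropeptide-like precursor), CG3961 (a long-chain acyl-CoA synthetase), CG15209, CG4210 and the targeted gene BEAF-32. Of these 9, CG14523 and DnaJ-1 had all 9 dsRNA libraries on 1 side of all 3 controls. In the others at least 1 dsRNA library lay within or beyond the range of the controls.

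These 9 genes passed an adjusted p of 0.05 in the quasi-likelihood test of edgeR, with Benjamini-Hochberg correction across all 7377 genes. Every adjusted p below comes from that test unless another tool is named. The 2 that rose are 0.0271% of tested genes, the 7 that fell are 0.0949%, and the 2 with libraries that also did not overlap are 0.0271%. With each group set against control by itself, 2 genes passed in BEAF-32 RNAi, 14 in row RNAi and 20 in double RNAi. The number that passed in all 3 groups was 0. At an unadjusted p under 0.05 there were 476 genes (6.45% of those tested), 242 higher (3.28%) and 234 lower (3.17%), which is the background for the counts at an unadjusted p given below for gene lists. The median log2 change of all tested genes was -0.01, with 48.0% of genes above 0 and 52.0% below. The typical 95% interval of the average reached 0.40 on the log2 scale to either side, from 0.19 for genes over 100 CPM in control to 1.31 for genes under 5 CPM. These intervals are not adjusted for the number of genes tested. They are therefore not the smallest changes that could be detected: the adjusted threshold asked for larger ones. Glt (-0.44, SE 0.10, adjusted p = 0.0505) and path (-0.99, SE 0.26, adjusted p = 0.161), both described below, did not pass. Nothing in the labels states that replicates were grown separately, so the p-values cover the variation among these libraries alone, which may be technical. The 3 dsRNA groups share the same control libraries, so their changes are set side by side and are not independent of each other.

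**Figure D1:**
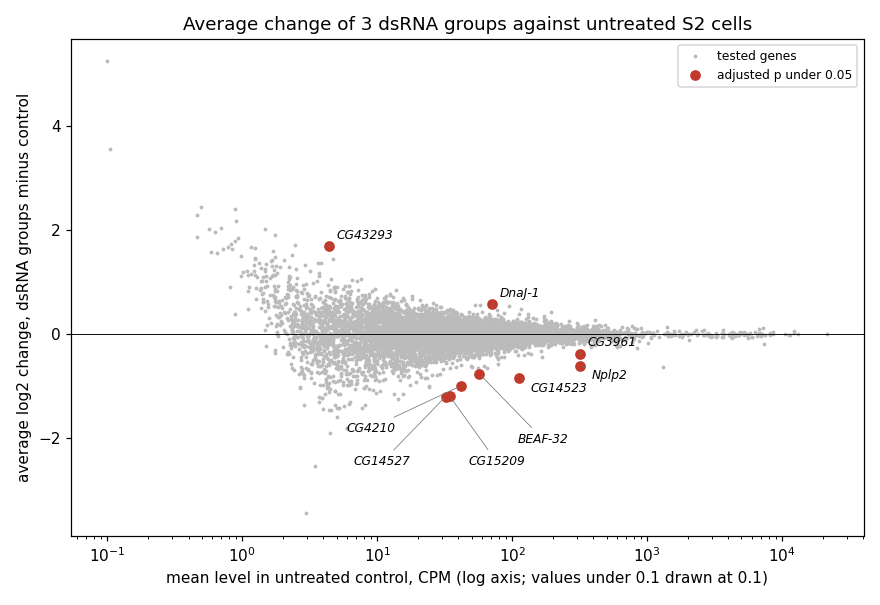
Average log2 change of the 3 dsRNA groups against control (vertical axis) by mean control level in CPM (horizontal log axis), 1 point per tested gene. The 9 genes past the threshold (red, named) include 2 above and 7 below 0, and the scatter narrows toward high levels.

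CG14523, on chromosome arm 3R and named Nepl19 in the reference annotation, had the smallest p. Its levels were 121, 91.5 and 122 CPM in the control libraries and 53.7, 75.9 and 78.1 CPM in BEAF-32 RNAi. They were 61.6, 54.1 and 68.0 CPM in row RNAi and 56.3, 57.7 and 53 CPM in double RNAi. Every dsRNA library thus lay below the lowest control, control replicate 2, in each of the 3 groups. The average fell by 0.85 on the log2 scale (SE 0.13, 95% interval -1.10 to -0.60, adjusted p = 5.19e-05), with group changes of -0.68 in BEAF-32 RNAi, -0.86 in row RNAi and -1.01 in double RNAi. The adjusted p of the groups was 0.180, 0.00269 and 2.63e-04 in the same order. The test of a difference among the 3 dsRNA groups gave an adjusted p of 0.770, and the widest difference, double minus BEAF-32 RNAi, was -0.32 (95% interval -0.66 to 0.01). Here and below, an interval for a difference between dsRNA groups is that of the widest pair. Such an interval is not adjusted for that choice or for the number of genes. CG14523 was the only gene that passed both under all 12 omissions of a library (highest adjusted p = 0.0216) and under all 8 other settings of normalization, filter, design and tool.

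CG14527 (Nepl20) lies next to CG14523 in the annotation. It stood at 34.5, 22.8 and 38.9 CPM in control and at 9.54, 14.4 and 15.6 CPM in BEAF-32 RNAi. Its levels were 27.3, 15.9 and 13.9 CPM in row RNAi and 6.20, 13.0 and 12.0 CPM in double RNAi. Row RNAi replicate 1 lay above the lowest control, and the other 8 dsRNA libraries lay below all controls. The average fell by 1.21 (SE 0.25, adjusted p = 0.0129), with changes of -1.27, -0.75 and -1.60 in BEAF-32, row and double RNAi. No difference among those groups passed (adjusted p = 0.610), though double minus row RNAi had an interval of -1.52 to -0.17. The call was lost without control replicate 1 or 3 (highest adjusted p = 0.500).

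Neprilysins are membrane-bound or secreted metallopeptidases that cut small peptides. Of the other members of the family that passed the filter, Nepl18 (CG14528), the neighbour on the other side of CG14523, averaged 3.46 CPM in control and 1.34 CPM in dsRNA libraries. Its average log2 change of -2.54 did not pass (SE 0.84, adjusted p = 0.419). By group Nepl18 changed by -3.15, -4.51 and 0.05 in BEAF-32, row and double RNAi, with only 64 counts over all 12 libraries. Nepl21 (CG14526), the neighbour of CG14527, changed by -0.53 (SE 0.60, adjusted p = 0.968). Outside this stretch, Nepl4 (CG9505) changed by 0.57 (adjusted p = 0.748) and Nepl3 (CG31918) by -0.24 (adjusted p = 0.886). CG14523 and CG14527 both overlap CG33203, which had 14 counts over all 12 libraries against their 2615 and 659. Whether counting used strand was not given in the sources used here, and without it reads from overlapping genes cannot be told apart.

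DnaJ-1, on 3L, assists Hsp70 in refolding proteins. Control libraries held 64.9, 77.1 and 70.9 CPM, and BEAF-32 RNAi libraries 81.9, 79.6 and 89.5 CPM. Levels reached 118, 132 and 109 CPM in row RNAi and 122, 117 and 115 CPM in double RNAi. All 9 dsRNA libraries were above the controls, but the BEAF-32 RNAi libraries came close to them while the other 6 stood clearly higher. The average rose by 0.57 (SE 0.12, adjusted p = 0.0129), with 0.23 in BEAF-32 RNAi (adjusted p = 0.937), 0.75 in row RNAi (adjusted p = 0.00269) and 0.73 in double RNAi (adjusted p = 0.00238). The difference among the dsRNA groups missed the threshold (adjusted p = 0.101), and row minus BEAF-32 RNAi was 0.52 (95% interval 0.24 to 0.79). Without control replicate 1 or 3 the average no longer passed (highest adjusted p = 0.237).

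CG43293, on 3L, was low in control at 4.56, 3.75 and 4.87 CPM. It stood at 4.77, 9.68 and 13.9 CPM in BEAF-32 RNAi, at 12.3, 13.4 and 17.3 CPM in row RNAi and at 21.7, 19.8 and 20.9 CPM in double RNAi. Only BEAF-32 RNAi replicate 1 fell within the control range, and the double RNAi libraries were the highest. The average rose by 1.69 (SE 0.37, adjusted p = 0.0203), with 1.11, 1.71 and 2.24 in BEAF-32, row and double RNAi. The groups did not differ past the threshold (adjusted p = 0.486), and double minus BEAF-32 RNAi spanned 0.36 to 1.88. The call was lost without any of the control replicates (highest adjusted p = 0.207) and in limma-voom (adjusted p = 0.252). D19A, which overlaps it on the other strand, changed by -0.37 (adjusted p = 0.873).

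CG4210, on 3R, stood at 35.7, 37.5 and 52.1 CPM in control and at 12.7, 21.5 and 9.37 CPM in BEAF-32 RNAi. In row RNAi it stood at 39.3, 24.8 and 34.3 CPM, which overlaps control, and in double RNAi at 24.4, 19.4 and 14.1 CPM. The libraries given dsRNA against BEAF-32, alone or with row, were all below control. The average fell by 1.00 (SE 0.21, adjusted p = 0.0173), with -1.51, -0.35 and -1.14 in BEAF-32, row and double RNAi. The difference among the groups had an adjusted p of 0.0822, and row minus BEAF-32 RNAi was 1.16 (95% interval 0.59 to 1.73). Without control replicate 3 the adjusted p was 0.617.

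**Figure D2:**
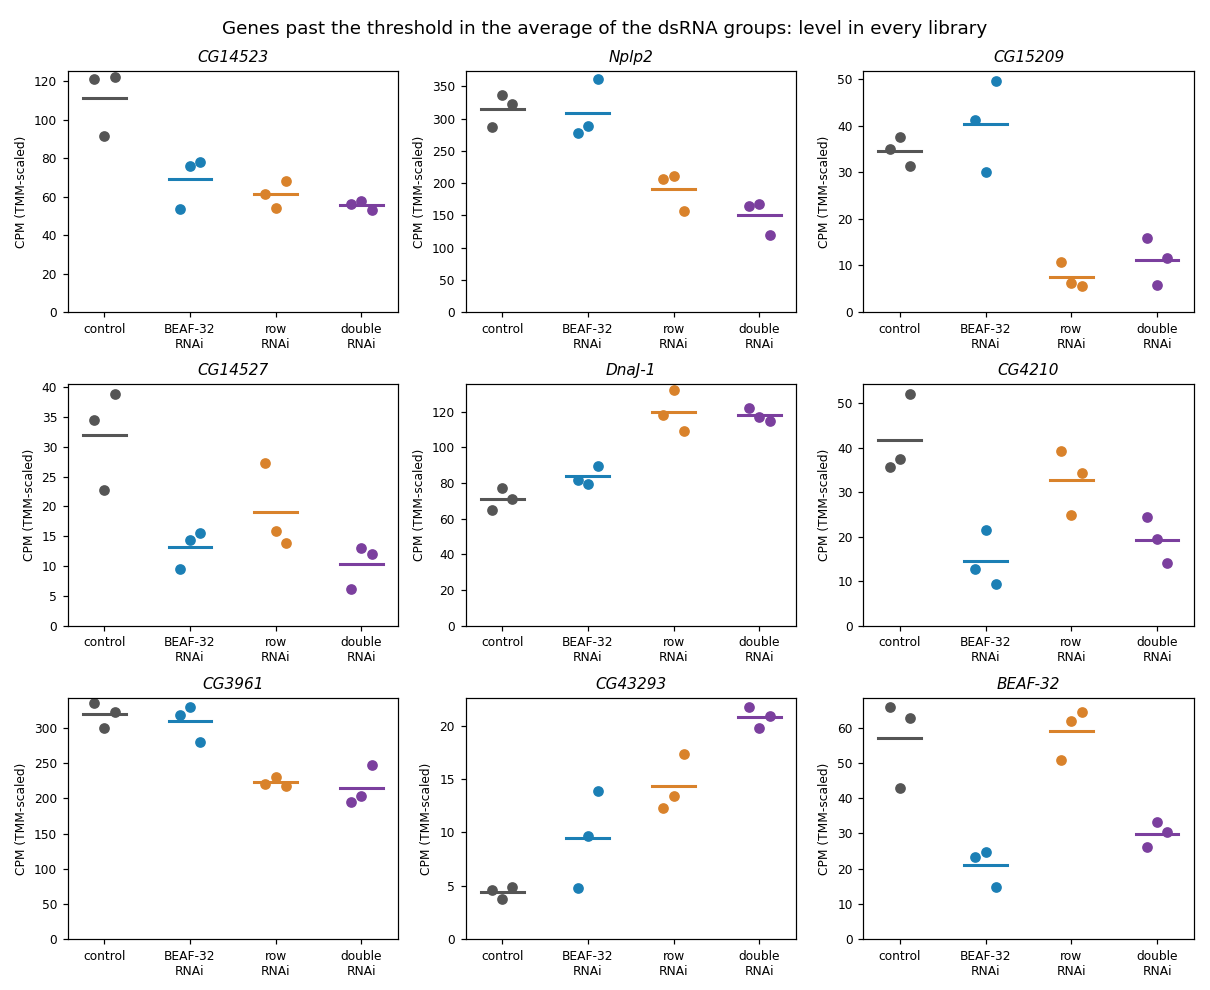
CPM of the 9 called genes in each library (points) by group, with the mean of 3 libraries as a bar; each vertical axis starts at 0. CG14523 is below control in all 9 dsRNA libraries and DnaJ-1 above it. For Nplp2, CG15209 and CG3961 the BEAF-32 RNAi libraries span or overlap the control range.

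For Nplp2, CG15209, CG3961 and BEAF-32 the average mixed unlike groups. These 4 are among 19 genes (0.258% of those tested) that differed among the 3 dsRNA groups at an adjusted p of 0.05, and 588 genes did so at an unadjusted p under 0.05. The other 5 called genes did not pass that test.

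Nplp2, on 3L, stood at 287, 336 and 323 CPM in control and at 277, 289 and 362 CPM in BEAF-32 RNAi. It stood at 206, 211 and 156 CPM in row RNAi and at 165, 168 and 119 CPM in double RNAi. The 6 libraries given dsRNA against row were all below control and those given BEAF-32 dsRNA alone were not. The average fell by 0.61 (SE 0.10, adjusted p = 5.91e-04), with -0.03, -0.73 and -1.08 in BEAF-32, row and double RNAi. The groups differed among themselves (adjusted p = 1.82e-06), and double minus BEAF-32 RNAi was -1.05 (95% interval -1.30 to -0.80).

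CG15209, on the X chromosome, split in the same places, with the opposite sign in BEAF-32 RNAi. It stood at 34.9, 37.5 and 31.3 CPM in control and at 41.3, 30.0 and 49.6 CPM in BEAF-32 RNAi. The row RNAi libraries held 10.7, 6.20 and 5.56 CPM and the double RNAi libraries 15.9, 5.89 and 11.7 CPM, all below control. Group changes were 0.22, -2.21 and -1.62 in BEAF-32, row and double RNAi, and the average fell by 1.20 (SE 0.23, adjusted p = 0.00454). The difference among groups had an adjusted p of 2.38e-07, and the average was lost without control replicate 2 (adjusted p = 0.0570). CG15209 overlaps sbr on the other strand, which changed by -0.13 (adjusted p = 0.976).

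CG3961 activates long-chain fatty acids and lies on 3L. It ranged from 300 to 336 CPM in control and from 280 to 330 CPM in BEAF-32 RNAi, against 195 to 248 CPM in the 6 row and double RNAi libraries. The average fell by 0.38 (SE 0.08, adjusted p = 0.0173), with -0.05, -0.52 and -0.56 by group, and the groups differed (adjusted p = 0.00181). The average was lost without control replicate 1 or 3 (highest adjusted p = 0.300).

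The 2 targeted genes were each lower where they were targeted. BEAF-32, on 2R, stood at 66.0, 42.8 and 62.9 CPM in control and at 23.4, 24.7 and 14.9 CPM in BEAF-32 RNAi. It stood at 50.9, 62.0 and 64.6 CPM in row RNAi and at 26.1, 33.3 and 30.4 CPM in double RNAi. The row transcript, also on 2R, stood at 52.4, 47.2 and 52.5 CPM in control and at 22.3, 33.1 and 23.2 CPM in row RNAi. Both targeted groups lay below control for their gene. In double RNAi row stood at 34.5, 34.1 and 25.4 CPM and in BEAF-32 RNAi, where it was not a target, at 41.3, 37.2 and 47.2 CPM. Averaged over the dsRNA groups, BEAF-32 fell by 0.77 (SE 0.17, adjusted p = 0.0203) and row had a change of -0.64 (SE 0.17) that did not pass (adjusted p = 0.161). Each gene was targeted in 2 of the 3 groups, so neither average can be read as a change shared by all dsRNA-treated cells. The test of a difference among the dsRNA groups passed for BEAF-32 (adjusted p = 2.77e-05) and did not pass for row. Leaving out control replicate 1, control replicate 3, replicate 1 of row RNAi or replicate 1 of double RNAi ended the averaged BEAF-32 call (highest adjusted p = 0.500).

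**Figure D3:**
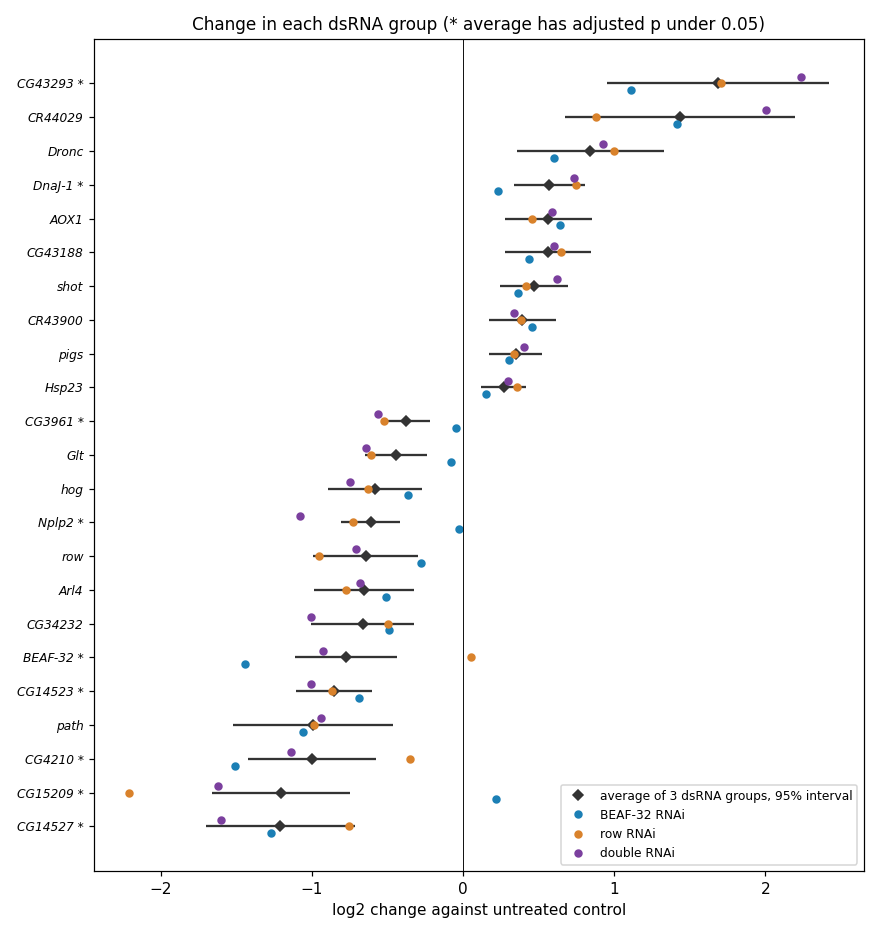
Log2 change against control in each dsRNA group (circles) and in their average (diamonds, with 95% intervals) for the 9 called genes (asterisks), row and the genes of next smallest p. For CG14523, path and pigs the 3 circles lie close together, while for CG15209 they run from -2.21 to 0.22.

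The genes of next smallest p, which did not pass, included several whose groups lay close together. For path, an amino acid transporter of the SLC36 type, controls held 19.0, 31.2 and 21.9 CPM and dsRNA libraries 8.12 to 15.3 CPM. All 9 lay below the controls, and the change was -0.99 (SE 0.26, adjusted p = 0.161) with -1.06, -0.99 and -0.94 by group. For pigs, which encodes a Gas2-family cytoskeletal protein, controls held 175, 175 and 169 CPM and dsRNA libraries 204 to 256 CPM, again with no overlap. Its change was 0.35 (SE 0.09, adjusted p = 0.108), and it passed in DESeq2's Wald test (adjusted p = 0.0284). Libraries of AOX1 (aldehyde oxidase, 0.56, adjusted p = 0.108) and CR44029 (a noncoding gene on chromosome 4, 1.44, adjusted p = 0.160) lay above control in all dsRNA groups, and those of Arl4 (-0.65, adjusted p = 0.108) below. The spectraplakin gene shot, which links actin to microtubules, came nearest to the threshold among genes with higher values (0.47, SE 0.11, adjusted p = 0.0579). Glt (glutactin, of the basement membrane) came nearest among those with lower values (-0.44, SE 0.10, adjusted p = 0.0505), with -0.08, -0.61 and -0.64 by group and a difference among groups (adjusted p = 0.0256). The remaining genes named by the same rule were CG43188 (0.56), CR43900 (0.39), Dronc (0.84), Hsp23 (0.27), CG34232 (-0.66) and hog (-0.58), with adjusted p of 0.108 to 0.252. Without control replicate 1 the change of CG34232 was -0.34 (adjusted p = 0.944), and without control replicate 2 it was -0.86 and passed (adjusted p = 0.0305).

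Over all tested genes, 36 (0.488%) had all 9 dsRNA libraries above all 3 controls and 40 (0.542%) had all 9 below. Of the 220 ways to pick 3 of 12 libraries as controls, 1 gives each pattern, a share of 0.00455. Both observed shares are near that. Of these 76 genes 2 passed the adjusted threshold, and for the others the lack of overlap is a description of 12 libraries.

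No gene of the machinery that handles dsRNA passed the threshold. Of 16 tested genes of the RNAi machinery 10 had a log2 change above 0 and 6 below, with a median of 0.05. At an unadjusted p under 0.05 there was 1 in each direction. Over all lists described here, the only member called in DESeq2 or limma-voom and not in edgeR was Glt (limma-voom, adjusted p = 0.0434). Dcr-2, which encodes Dicer-2, stood at 33.8, 35.9 and 37.9 CPM in control and at 38.2 to 54.5 CPM in dsRNA libraries. All 9 lay above the controls, BEAF-32 RNAi replicate 1 by little, and the change was 0.38 (95% interval 0.05 to 0.70, adjusted p = 0.748). Dcr-1, which encodes the Dicer of the microRNA pathway, stood at 28.1, 24.4 and 15.3 CPM in control and at 6.87 to 22.1 CPM in dsRNA libraries, which overlap. Its change was -0.62 (95% interval -1.14 to -0.09, adjusted p = 0.748). The interval for AGO2, which encodes Argonaute-2, ran from -0.21 to 0.29 around 0.04, and that for r2d2 from -0.35 to 0.47 around 0.06. Among 21 tested genes of dsRNA uptake and endocytosis 7 had a change above 0 and 14 below (median -0.06), with 0 at an unadjusted p under 0.05.

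Immune genes likewise gave no call. The Toll and Imd lists held 23 tested genes, 13 above 0 and 10 below (median 0.04), of which 0 passed and 2 had an unadjusted p under 0.05, both higher. These were key, a subunit of the Imd kinase complex (0.33, adjusted p = 0.748), and pirk, an inhibitor of Imd signalling (1.29, SE 0.63, adjusted p = 0.766), which averaged 2.24 CPM in control and 5.44 CPM in dsRNA libraries. Of 15 antimicrobial peptide genes 4 had no counts and only CecA1 passed the filter on low counts. It stood at 0.348 to 1.52 CPM in control and 0.312 to 8.68 CPM in dsRNA libraries, with an adjusted p of 0.773. Among 9 JAK/STAT and antiviral genes 6 were above 0, and 0 had an unadjusted p under 0.05. The virus-induced gene vir-1 stood at 260, 304 and 230 CPM in control and 233 to 327 CPM in dsRNA libraries, and the interval of its change was -0.13 to 0.23.

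Among stress genes DnaJ-1 was the only call, and more genes had changes above 0 than below. Of 16 tested heat shock chaperone genes 15 had a change above 0 and 1 below (median 0.135), and 4 had an unadjusted p under 0.05, all higher. The summed level of the list was 5500 to 5760 CPM in control and 5520 to 5940 CPM in BEAF-32 RNAi, which overlap, against 6270 to 6430 CPM in row and double RNAi. Hsp23, a small heat shock protein gene, made up part of that sum with 360 to 458 CPM in control and 408 to 532 CPM in dsRNA libraries (change 0.27, adjusted p = 0.197). The average of stress-inducible Hsp68 was 0.07 (95% interval -0.36 to 0.50), but its groups went in opposite directions, with -0.65, 0.56 and 0.32 in BEAF-32, row and double RNAi. It is among the 19 genes that differed among the dsRNA groups (adjusted p = 0.0384), and row minus BEAF-32 RNAi was 1.21 (95% interval 0.67 to 1.74). Stress-inducible Hsp70Bc had an average of 0.21 (95% interval -0.78 to 1.21). It has near-identical copies between which its reads could be split, so its value is uncertain.

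Of 21 JNK and stress signalling genes 15 were above 0 (median 0.06), 0 passed and 5 had an unadjusted p under 0.05, all higher. The group medians were -0.06, 0.12 and 0.13 in BEAF-32, row and double RNAi, and the median of the average was 0.0147 without control replicate 3. The summed level was 1150 to 1220 CPM in control and 1190 to 1220 CPM in BEAF-32 RNAi, against 1260 to 1410 CPM in row and double RNAi, where no library overlapped control. The JNK target puc, a phosphatase that limits the pathway, changed by 0.08, 0.25 and 0.67 in BEAF-32, row and double RNAi (average 0.33, adjusted p = 0.766). Among 15 apoptosis genes 9 were above 0 (median 0.04), 0 passed and 4 had an unadjusted p under 0.05. They were the initiator caspase gene Dronc, its activator Dark, the effector caspase gene Drice and Xrp1. Dronc stood at 16.3, 11.9 and 13.2 CPM in control and at 15.9 to 31.2 CPM in dsRNA libraries, with 1 of the 9 inside the control range (change 0.84, adjusted p = 0.252). The median of this list ran from 0.000297 to 0.214 over left-out libraries and was highest without control replicate 2. Without that library the median of the Toll and Imd list was 0.17. Of 19 genes of the integrated stress and unfolded protein responses 12 were above 0 (median 0.14), with 0 called and 3 at an unadjusted p under 0.05.

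**Figure D4:**
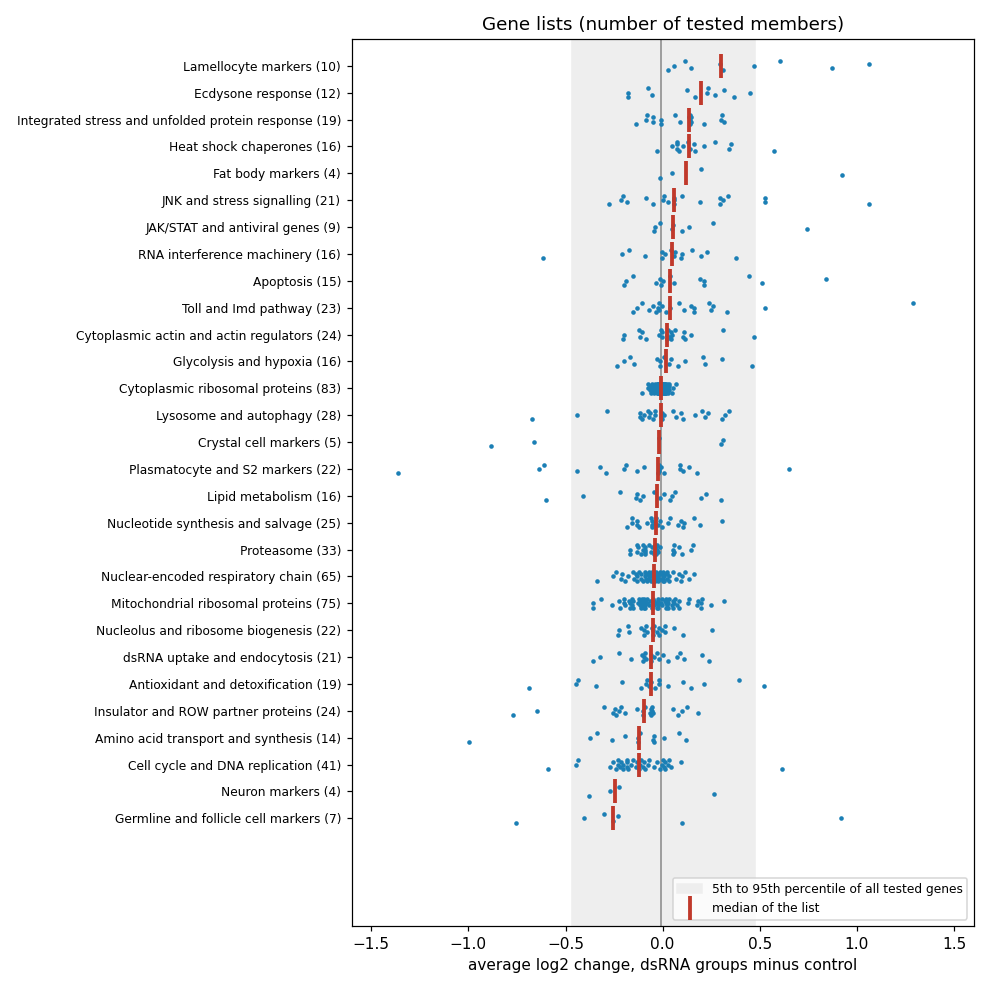
Average log2 change of each tested member (points) of the gene lists with at least 3 tested members, with the median of each list (red bar), the median of all tested genes (line) and their range from the 5th to the 95th percentile (grey, -0.47 to 0.48). Medians run from -0.26 for germline and follicle cell markers to 0.30 for lamellocyte markers; the grey range is that of single genes and gives no scale for medians.

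No gene of the growth and metabolism lists passed. Cytoplasmic ribosomal protein genes had a median of -0.01 over 83 genes, with 1 gene at an unadjusted p under 0.05, and the nuclear-encoded respiratory chain -0.04 over 65, with 4. Cell cycle and DNA replication genes were below 0 in 32 of 41 (median -0.12, 2 at an unadjusted p under 0.05). Their summed level was 3380 to 3500 CPM in control and 2810 to 3400 CPM in dsRNA libraries, which overlap. The median of the list in each library, on the log2 scale against the control mean, did not overlap. It was 0.0153 to 0.0358 in control and -0.18 to 0.00777 in dsRNA libraries, a difference that was not tested. Of 14 genes of amino acid transport and synthesis 11 were below 0 (median -0.12), 2 of them at an unadjusted p under 0.05: path, described above, and CG11899, a phosphoserine aminotransferase gene of serine synthesis (-0.37, adjusted p = 0.256). The median of this list in each library was 0.0265 to 0.144 in control and -0.192 to -0.0318 in dsRNA libraries, also not tested. Of 19 antioxidant and detoxification genes 6 were above 0 and 13 below (median -0.06), with 1 higher and 4 lower at an unadjusted p under 0.05. The peroxiredoxin gene Prx2540-1 had an average of -0.45 that did not pass, with 0.19, -0.86 and -0.68 by group. Its groups differed (adjusted p = 1.35e-04) and it fell in row RNAi (adjusted p = 0.00896), but it has a near-identical copy, Prx2540-2, which makes its value uncertain. GstD1, a glutathione transferase gene, changed by 0.39 (adjusted p = 0.627) with 0.40, 0.39 and 0.38 by group, and the epoxide hydrolase gene Jheh1 by -0.44 (adjusted p = 0.252) with -0.12, -0.34 and -0.85.

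Lamellocytes are flattened blood cells that encapsulate parasites in larvae, and they share cytoskeletal genes with other adherent cells. All 10 tested members of the lamellocyte list had a change above 0 (median 0.30), 0 passed and 5 had an unadjusted p under 0.05. The summed level of the list was 834 to 843 CPM in control and 893 to 1110 CPM in dsRNA libraries, with no overlap. The 5 were shot, cher (filamin, 0.31, adjusted p = 0.284), Mmp1 (a matrix metalloproteinase, 1.06, adjusted p = 0.287), PPO3 (a prophenoloxidase, 0.60, adjusted p = 0.337) and kay (Fos, a JNK effector, 0.29, adjusted p = 0.421). Of these, shot, cher, Mmp1 and kay are also on the actin or JNK lists. PPO3 stood at 30.0, 22.2 and 25.7 CPM in control and 30.6 to 51.3 CPM in dsRNA libraries, all above control. Other members of the list differed widely in level. The marker atilla had no counts in control and at most 1.66 CPM with dsRNA, and PH4alphaMP had none in any library. In control Drip averaged 0.232 CPM, ItgaPS4 1.66 CPM, ItgaPS5 1.76 CPM and mthl4 5.37 CPM. Levels were higher for rhea (26.4 CPM), mys (175 CPM) and msn (179 CPM). In bulk libraries more cells of a type and more RNA per cell cannot be told apart. The shot gene passed in some other settings (adjusted p = 0.00626 with no filter on low counts). Of 24 genes of cytoplasmic actin and its regulators 14 were above 0 (median 0.02), 0 passed and 4 had an unadjusted p under 0.05, all higher. Its members Act5C and Act42A, which encode the cytoplasmic actins, and ena, which encodes an actin filament elongation factor, differed among the dsRNA groups (adjusted p = 6.87e-06, 0.0305 and 0.0351). Act5C had changes of -0.11, 0.27 and 0.15 in BEAF-32, row and double RNAi and rose in row RNAi (adjusted p = 0.00269). Of 12 ecdysone response genes 8 were above 0, 0 passed and 2 had an unadjusted p under 0.05; their median of 0.20 was 0.03 without control replicate 3.

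Plasmatocyte and S2 markers did not move together. Of 22 tested genes 7 were above 0 and 15 below (median -0.02), 1 fell (Nplp2) and 8 had an unadjusted p under 0.05, 1 higher and 7 lower. Those lower were Nplp2, Glt, Pxn (peroxidasin, -0.19, adjusted p = 0.536), LanB1 (a laminin chain, -0.20, adjusted p = 0.748), vkg (a collagen IV chain, -0.29, adjusted p = 0.748), He (-0.64, adjusted p = 0.750) and NimB4 (-1.36, adjusted p = 0.756). The groups differed for He, with 0.69, -1.96 and -0.65 in BEAF-32, row and double RNAi (adjusted p = 0.00516). Other extracellular matrix genes of the list were near 0, with LanA at -0.01, SPARC at -0.02 and Ppn at 0.11. NimC4, a receptor for apoptotic cells, was the gene with a higher value (0.65, adjusted p = 0.523). Insulator genes and partners of ROW were below 0 in 19 of 24 (median -0.10), among them the 2 targets, and pzg was the other member at an unadjusted p under 0.05 (-0.25, adjusted p = 0.748). The pzg libraries stood at 136, 128 and 134 CPM in control and 87.8 to 125 CPM with dsRNA, all below control.

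The number of calls rested on the controls, of which there were only 3. It was 4 without control replicate 1, 11 without control replicate 2 and 3 without control replicate 3, against 8 to 11 when 1 of the 9 dsRNA libraries was left out. It also depended on which groups were averaged. Without BEAF-32 RNAi there were 24 genes, 8 higher and 16 lower, 7 of them among the 9; without row RNAi there were 9, of which 6 were shared; and without double RNAi only CG14523 was left. Treating the 9 dsRNA libraries as replicates of 1 group also left only CG14523; in that model differences between the groups count as error. Principal component 1 held 12.7% of the variance, and the groups overlapped on it. Control ran from -23.4 to 1.88, BEAF-32 RNAi from -4.62 to 25.5, row RNAi from -10.9 to -0.43 and double RNAi from -5.08 to 17.8. On principal component 2, which held 12.1% of the variance, control (-12.9 to -0.32) and BEAF-32 RNAi libraries (-18.0 to -7.38) lay on 1 side and row (6.70 to 8.04) and double RNAi libraries (8.26 to 22.1) on the other.

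**Figure D5:**
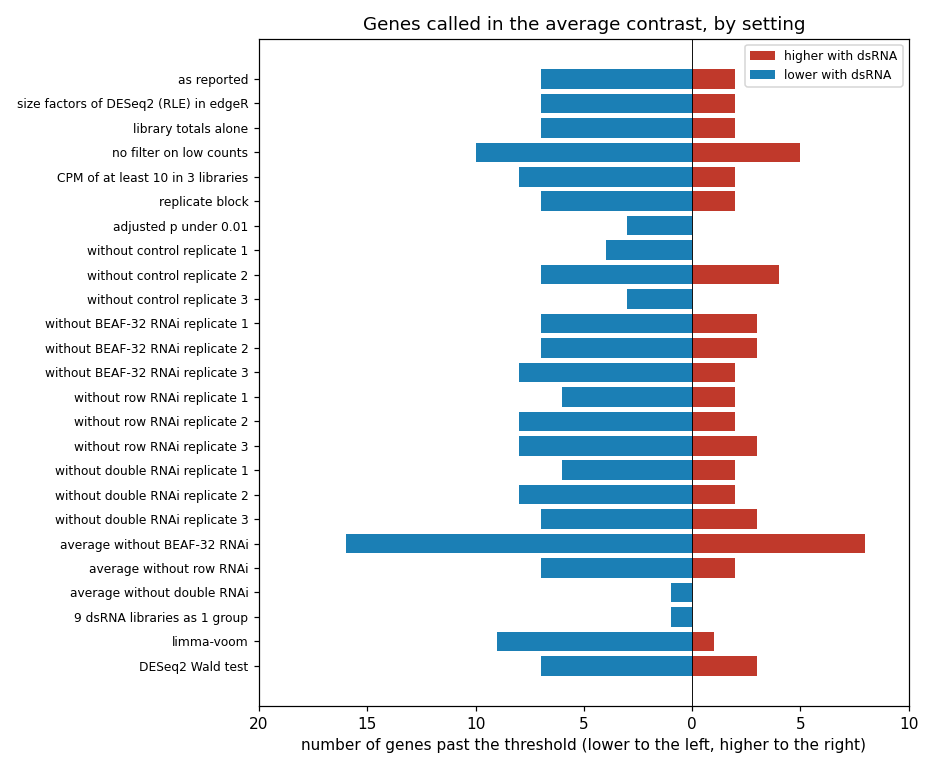
Number of genes past the threshold in the average of the dsRNA groups under each setting, higher to the right and lower to the left. The count is 9 as reported, 3 to 4 without control replicate 3 or 1, 24 when BEAF-32 RNAi is left out of the average and 1 when double RNAi is left out or the 9 dsRNA libraries are taken as 1 group.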

How the data were processed

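Per the labels' protocols, oligo-dT primers with a 7-base barcode and an 8-base molecular identifier primed 100 ng of RNA per library. Alignment used STAR and dm3, per the submitters' processing notes; versions, annotation, counting, strand use and treatment of molecular identifiers were not given in the sources used here. What the authors deposited were raw counts per gene, not normalized, in a table of 16718 genes, 5628 of them at 0 throughout. Columns were tied to samples by name. Names and neighbours came from the BDGP6.54 annotation (16576 symbols matched), another build, so no coordinates are printed. The table held no mitochondrial genes that could be recognised, so their share was not analysed here.

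Genes passing filterByExpr by group at a minimum count of 10 were fitted in edgeR 4.0.16 (R 4.3.3), with TMM factors of 0.962 to 1.05, by a robust quasi-likelihood model of 4 group means over 12 libraries (8 residual degrees of freedom, median prior 51.4, biological coefficient of variation 0.172). The contrast was the mean of the 3 dsRNA groups minus control. A test with 2 degrees of freedom compared the dsRNA groups. Adjustment was by Benjamini-Hochberg across all tested genes. Alternatives were DESeq2's size factors, library totals, other filters, a replicate block, a threshold of 0.01, other averages, DESeq2 1.42.0, limma-voom (limma 3.58.1) and leaving out each library.

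Genes named were the targets, those past the threshold, then those of smallest p to 10 in each direction (CPM of at least 10 in either arm, same sign in the 3 groups), and up to 3 per list, with some neighbours, family members and list members added after their values were seen. The comparison, the 31 lists and the rule were chosen with earlier results of these data known.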

Additional observations from a re-analysis of the deposited data

Results flagged for a closer look

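Of the genes named for the average, 5 differed between the dsRNA groups by the test of that difference (quasi-likelihood test of edgeR, adjusted over all tested genes by the Benjamini-Hochberg method). The adjusted p was 2.38e-07 for CG15209, 1.82e-06 for Nplp2, 2.77e-05 for BEAF-32, 0.00181 for CG3961 and 0.0256 for Glt. In CG15209, Nplp2, CG3961 and Glt the BEAF-32 RNAi group stayed within 0.22 of control on the log2 scale while row and double RNAi were lower by more. BEAF-32 was lower in the groups that targeted it and at 0.05 in row RNAi.
Among other members of the gene lists, 8 differed between the dsRNA groups by the same test. The adjusted p was 6.87e-06 for Act5C, 1.35e-04 for Prx2540-1, 0.00263 for Cbs, 0.00516 for He, 0.0305 for Act42A, 0.0351 for ena, 0.0369 for sima and 0.0384 for Hsp68. Cbs, which encodes cystathionine beta-synthase, changed by 0.26, -0.65 and -0.19 in BEAF-32, row and double RNAi, and sima, which encodes a hypoxia-inducible factor, by 0.11, 0.87 and 0.40.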

How the results depend on the processing

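The average of the dsRNA groups gave 2 genes higher and 7 lower, 2 of them with all dsRNA libraries on 1 side of control, and 19 genes differed among the dsRNA groups. Leaving out each library in turn, these counts ran from 0 to 4, 3 to 8, 1 to 7 and 10 to 30. They were 5 higher with no filter on low counts; 0 higher, 3 lower and 1 on 1 side at a threshold of 0.01; 8, 16 and 4 averaged without BEAF-32 RNAi; 0, 1 and 1 without double RNAi or with the 9 dsRNA libraries as 1 group. Higher genes numbered 1 in limma-voom, genes on 1 side 1 with library totals alone, and genes differing among groups 31 in DESeq2.

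BEAF-32 kept its sign, from -0.95 to -0.66 over left-out libraries, but did not pass at 0.01 (-0.77) or averaged without BEAF-32 RNAi (-0.44), without double RNAi (-0.69) or as 1 group (-0.63). Averaged without BEAF-32 RNAi, row passed (-0.83). None of the called genes, the targets and the genes of next smallest p changed sign under the settings run; other genes named from lists were not recomputed. Over left-out libraries list medians ran from 0.00393 to 0.168 (Toll and Imd), 0.000297 to 0.214 (apoptosis), -0.0848 to 0.0018 (mitochondrial ribosomal proteins), -0.0937 to -0.00179 (plasmatocyte and S2 markers), -0.37 to -0.0271 (neuron markers), 0.0265 to 0.22 (ecdysone response) and -0.18 to -0.054 (insulator and ROW partners). The causes were not tested.

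Same-numbered libraries did not deviate together more than others. Their 18 pairs correlated at -0.117 to 0.0617, 0 of them over 0.1, against -0.111 to 0.0949 for the 36 other pairs. Of 12 libraries 5 correlated best with their own number. The replicate block gave 2 genes higher, 7 lower and 18 differing among groups. With 3 controls, the 95% interval of a typical gene reached about 0.40 on the log2 scale to either side. It is not adjusted for the number of genes tested. A change of that size in such a gene was too small for the adjusted threshold.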
